A study of Mus musculus with 6 samples.

Results

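The heat shock and chaperonin genes examined here are 37 listed genes of cytosolic and mitochondrial heat shock proteins, their cochaperones and the CCT chaperonin, found by symbol among the 21233 genes of the deposited count table. They were measured by RNA-seq in 6 libraries of mouse Th9 cells, CD4 T helper cells defined by their secretion of interleukin 9. Of these, 3 libraries came from sorafenib-treated Th9 cells and 3 from control Th9 cells that had not received the drug. Sorafenib is an oral kinase inhibitor whose targets include the RAF kinases and receptors of the VEGF and PDGF families. The sources used here do not give the mouse strain, the polarising conditions, or the dose, duration and vehicle of the treatment. Nothing in the labels says that the numbered replicates were separate cultures or mice, so the p-values measure the spread between these libraries, which may be technical.

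Heat shock proteins are chaperones that bind unfolded or partly folded proteins and help them reach or keep their native shape. HSP70 proteins work in cycles of ATP hydrolysis that J-domain cochaperones start and nucleotide exchange factors end, and they can pass clients on to HSP90, which matures kinases and steroid receptors. In mitochondria HSP60 and HSP10, encoded by Hspd1 and Hspe1, form a folding chamber, and in the cytosol the CCT complex does the same work for actin and tubulin. The heat shock factors, HSF1 above all, switch on the inducible members of these families under proteotoxic stress by binding inverted repeats of the motif GAA, and T cells raise many of these genes on activation.

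Promoter stretches of 2 gene pairs are shown first, because Hspa1a and Hspa1b share nearly all of their promoter letters and a promoter window of Hspd1 overlaps that of Hspe1. The sequences are from RefSeq on GRCm38.p6, with positions counted from the gene start, -1 being the last base before it, and capitals mark heat shock element pairs, that is GAANNTTC or TTCNNGAA, which read the same on both strands. The stretch before Hspa1a lies at chr17:34972157-34972306 and that before Hspa1b at chr17:34959239-34959388, both on the minus strand and both covering positions -150 to -1.
Hspa1a: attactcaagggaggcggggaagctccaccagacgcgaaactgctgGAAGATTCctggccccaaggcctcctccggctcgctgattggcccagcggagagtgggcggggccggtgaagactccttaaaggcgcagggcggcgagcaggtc
Hspa1b: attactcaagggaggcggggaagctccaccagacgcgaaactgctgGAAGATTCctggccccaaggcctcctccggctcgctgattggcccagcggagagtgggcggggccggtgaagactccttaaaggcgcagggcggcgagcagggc
The printed stretches share 149 of 150 bases, and each holds 1 pair. A stretch between 1 of the starts of Hspd1 and the start of Hspe1, which diverge on chromosome 1 with 215 bases between them, is printed on the plus strand at chr1:55088053-55088082, positions -95 to -66 of Hspe1.
Hspe1: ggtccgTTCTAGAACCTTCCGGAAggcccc
It holds 3 overlapping pairs and lies in the window of Hspe1 and in 1 of the 2 windows of Hspd1, while the other Hspd1 window holds 0 pairs. The GENCODE annotation of GRCm38 also places an exon of an alternative Hspd1 transcript over this stretch.

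Promoter windows of 250 bases before to 50 after a start were used for 31 of the 37 genes, as 38 windows. No window was used for Hsf1, Hspa8, Hspa9, Cct4, Hsp90aa1 or Hsp90ab1. A heat shock element pair was present in 16 of these windows (42.1%), against 15.1% of all 32851 windows in the table. Overlapping pairs that form a triple repeat were present in 5 windows (13.2%), against 0.603% of all windows, and these belonged to Hspd1, Hspe1, Hsph1 and Chordc1. The Hspd1 and Hspe1 windows with a triple overlap, as do the Hsph1 windows, so the same stretches were counted more than once. The window of Hsf2 held no pair. A match is a description of the letters and not evidence of a bound site.

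Library totals lay between 36981476 and 38126521 counts. At this depth 3 counts, the limit that a count of 0 allows, corresponded to 0.0787 to 0.0811 CPM, a limit that covers counting error only. CPM are counts brought to a common library total with TMM factors, which correct for differences in composition. Il9 was present at 283, 253 and 264 CPM in the sorafenib libraries and at 177, 213 and 186 CPM in the control libraries, and Cd4 averaged 496 CPM in sorafenib libraries and 476 CPM in control libraries. Control library 2 stood apart from the other controls: its log CPM values correlated with theirs at 0.983 and 0.984 across genes, against 0.992 between controls 1 and 3 and 0.991 to 0.993 among sorafenib libraries. Its scaling factor was 0.922, against 0.993 to 1.03 in the other libraries, and its counts were on shorter genes, with a mean gene length per count of 3714 bases against 4017 to 4245 bases in the others.

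Marker genes of T cells, to which Th9 cells belong, and of other cells also differed between the groups. Summed T cell markers were 2407 to 2492 CPM in sorafenib libraries and 2709 to 2778 CPM in control libraries, with 5 of 10 tested markers lower and 0 higher, Cd28 (1.46-fold lower) and Cd3g (1.31-fold lower) among them. Summed B cell markers were 37.2 to 40.1 CPM in sorafenib libraries and 27.8 to 35.4 CPM in control libraries, with 6 of 7 tested markers higher, Cd22 among them, and Ebf1 lower, while Ms4a1 had 0 to 2 counts in every library. CD8 markers summed to 8.89 to 11.1 CPM in sorafenib libraries and 6.17 to 7.09 CPM in control libraries, where 1 of 2, Cd8b1, was higher. Myeloid markers summed to 45.3 to 47.3 CPM in sorafenib libraries and 50.02 to 59.7 CPM in control libraries, with Flt3 higher, Batf3 lower and Csf1r at 0 to 2 counts. Neutrophil markers summed to 2.58 to 2.96 CPM in sorafenib libraries and 9.38 to 11.3 CPM in control libraries, with Ly6g and Cxcr2 lower of 3 tested and Elane and Ltf at 0 or 1 count. Stromal, endothelial and epithelial markers summed to 29.7 to 31.5 CPM in sorafenib libraries and 57 to 60.5 CPM in control libraries, with 3 of 5 tested lower, Pecam1 and Epcam among them. Erythroid and platelet markers stayed under 1 CPM in sum, and 0 of them were tested. The part of these markers in the differences below was not tested, and in bulk RNA fewer cells of a type cannot be told apart from less RNA per cell. Bulk RNA also does not show which cells the reads of a marker came from, Th9 cells included.

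Most heat shock and chaperonin genes did not pass the test between sorafenib and control. The test was edgeR's quasi-likelihood F test, with Benjamini-Hochberg adjustment over all 13255 tested genes and a threshold of 0.05. Of the 36 tested members 2 rose, Hsf2 and Hspd1, and 2 fell, Hspa1a and Hspa1b. That is 11.1% of the members, against 17.9% of all tested genes, of which 8.51% rose and 9.43% fell. An unadjusted p under 0.05 was reached by 10 of the 36 members, against 4096 of all 13255 tested genes. The median log2 fold change of the 36 members was -0.0015, against -0.01 over all tested genes. On CPM the groups did not overlap for 12 of the members, 5 higher and 7 lower, against 36.3% of all tested genes, of which 18.3% were higher and 18% lower.

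Control library 2 also stood apart for the members, and without it calls over all tested genes rose from 17.9% to 31.8%. On CPM it held the highest of the 6 values for 20 of the 36 tested members, or 55.6%, against 26.6% of all tested genes. All 8 CCT genes were among these 20, but on FPKM sorafenib 1 lay above control 2 for Cct2, Cct3, Cct4 and Cct5. Relative to the mean of the other controls, the median member was 0.22 higher in it on the log2 scale, against 0.01 over all tested genes. Without control 2, 9 members rose (Ahsa1, Cct2, Cct4, Fkbp4, Hsf2, Hsp90ab1, Hspa9, Hspd1 and Hspe1) and 4 fell (Hsp90aa1, Hspa1a, Hspa1b and Hspa4l), against 15% of all tested genes higher and 16.8% lower, 31.8% together. Scaling by total counts alone, with all 6 libraries, called 5 members higher (Ahsa1, Fkbp4, Hspa9, Hsf2 and Hspd1) and 2 lower. All tested genes then divided into 1496 higher (11.3%) and 826 lower (6.23%), 17.5% together, in place of 1128 and 1250.

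**Figure D1:**
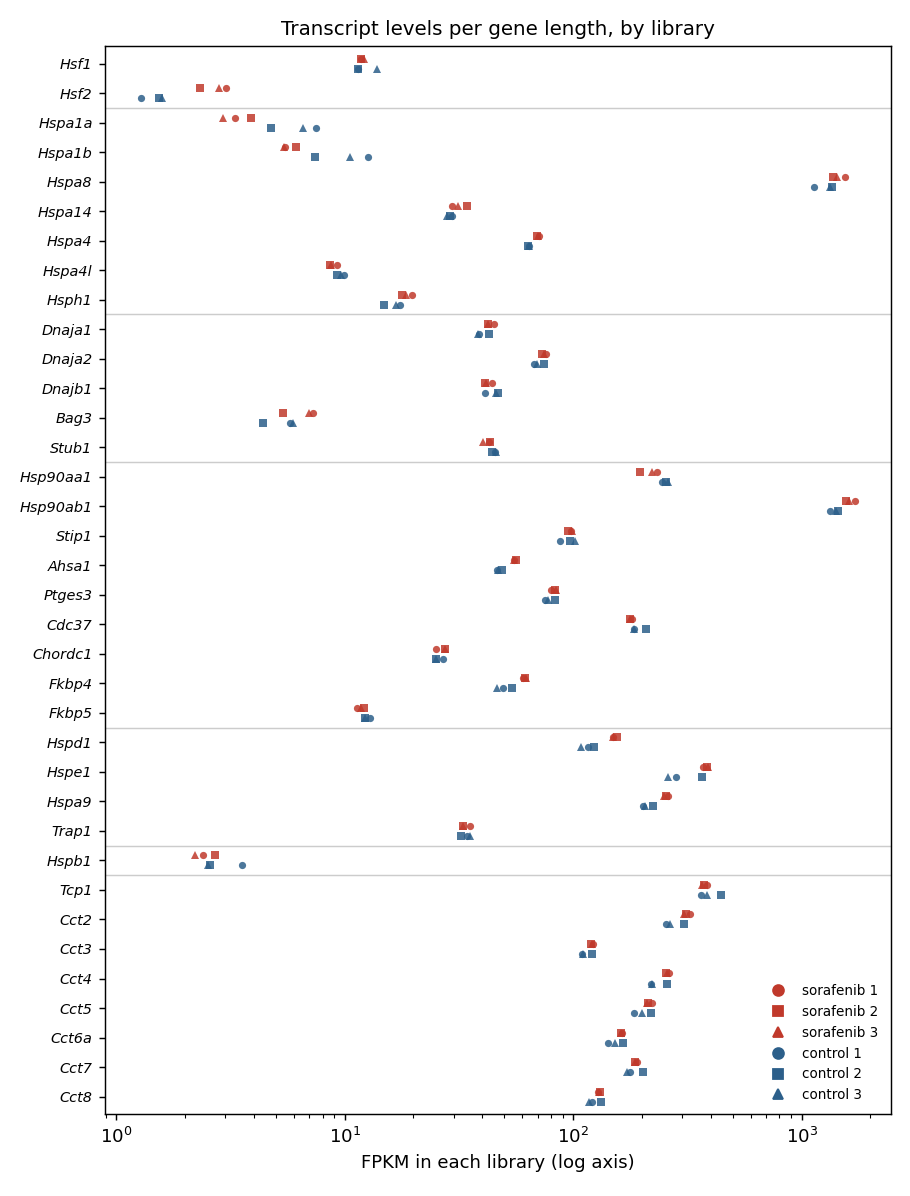
FPKM (log axis) of the 36 tested heat shock and chaperonin genes, each library a point, sorafenib above control, with lines between groups of genes by role. Hsp90ab1 and Hspa8 lie farthest right, averaging 1511 and 1363 FPKM over all 6 libraries, and Hsf2 lies farthest left at 2.09 FPKM.

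The members covered a wide span of levels, as shown by the plot of FPKM (counts scaled by gene length and library total, so that genes can be compared). Hsp90ab1, the constitutive cytosolic HSP90, averaged 1511 FPKM over the 6 libraries, and Hspa8, the constitutive HSP70, averaged 1363 FPKM. Next came Tcp1, a CCT subunit, at 387 FPKM, and Hspe1 at 342 FPKM. The stress-inducible HSP70 genes were far lower, with Hspa1b averaging 7.94 FPKM and Hspa1a 4.83 FPKM, and Hsf2 averaged 2.09 FPKM. The FPKM of Hsf2 rests on a gene length of 9618 bases. On CPM Hsf2 averaged 25.5 in sorafenib and 14.6 in control libraries, above Hspb1 at 2.14 in sorafenib and 2.66 in control libraries. The values of Hspa1a and Hspa1b may be too low, since reads that match both could have been left out.

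Of the heat shock factors, Hsf2 rose and Hsf1 did not pass the test. Hsf2, a heat shock factor that can form trimers with HSF1 and acts in development and proteasome stress, had 28.4, 21.6 and 26.3 CPM in sorafenib libraries, against 12.2, 16.1 and 15.4 CPM in control libraries. Each sorafenib library lay above each control library. The gene was 1.75-fold higher with sorafenib (log2 fold change 0.81 ± 0.13 SE, n = 3 per group, adjusted p = 0.00206 by edgeR's quasi-likelihood test). The call held under all 16 alternatives, with log2 fold changes of 0.59 to 0.92. Hsf1, the main activator of the heat shock response, had 29.4, 29.03 and 30.4 CPM in sorafenib libraries and 29.03, 31.6 and 35.7 CPM in control libraries, which overlapped (log2 fold change -0.12 ± 0.09 SE, adjusted p = 0.43). Its activity is set mainly by trimerisation and phosphorylation of the protein, which RNA counts do not measure.

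Both stress-inducible HSP70 genes fell. Hspa1a had 9.12, 10.6 and 8.02 CPM in sorafenib libraries, against 20.8, 14.4 and 18.5 CPM in control libraries. Hspa1b had 15.1, 16.7 and 14.8 CPM in sorafenib libraries, against 35.2, 22.7 and 29.8 CPM in control libraries. For both genes the groups did not overlap, and control 2 was the lowest of the controls. Hspa1a was 1.94-fold lower with sorafenib (log2 fold change -0.96 ± 0.15 SE, adjusted p = 0.00164) and Hspa1b 1.88-fold lower (log2 fold change -0.91 ± 0.14 SE, adjusted p = 0.00161), both by edgeR's quasi-likelihood test. Both calls held under 15 of 16 alternatives and were lost on unfiltered log2(FPKM + 1) values (adjusted p = 0.053 for Hspa1a and 0.0645 for Hspa1b).

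The longest open reading frames of Hspa1a and Hspa1b are identical at 1918 of 1926 aligned bases (99.6%). Reads that match both genes could have been split between them or left out of both, since their handling is not given. The separate values of both genes and their sum are therefore uncertain. Their sum, chosen after the values were seen and given without a test, was 24.2, 27.3 and 22.8 CPM in sorafenib libraries, against 55.9, 37.1 and 48.4 CPM in control libraries. Every sorafenib sum lay below every control sum. The FPKM ratio of Hspa1b to Hspa1a was 1.57 to 1.84 in sorafenib libraries and 1.57 to 1.69 in control libraries.

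**Figure D2:**
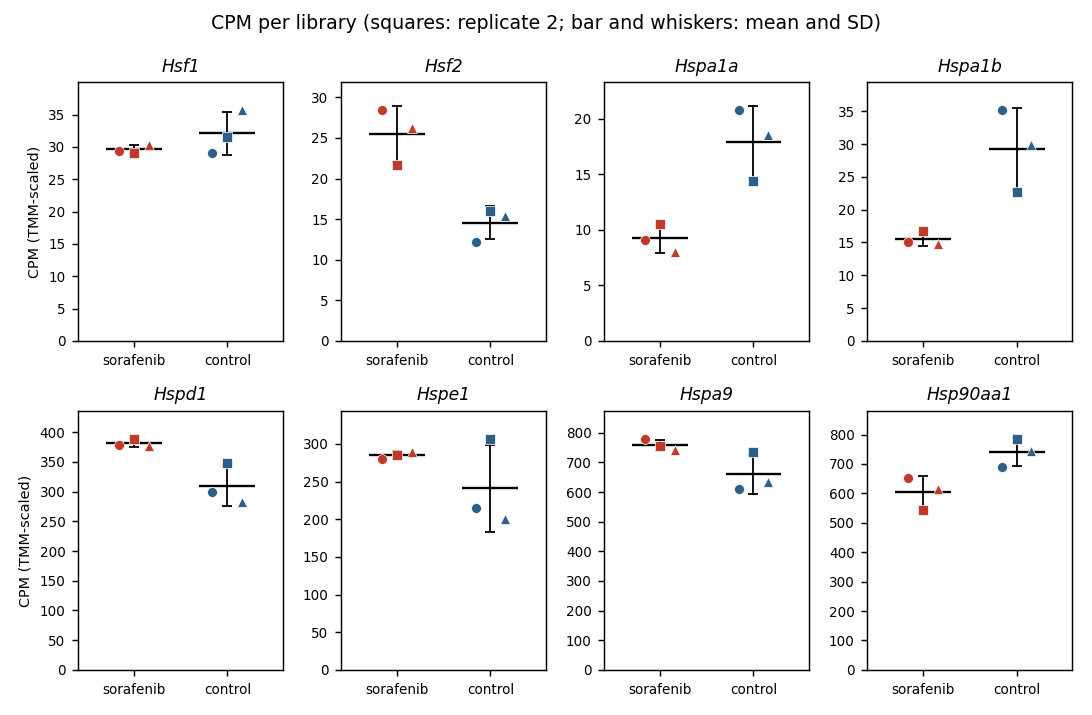
CPM of selected heat shock and chaperonin genes in each library, sorafenib left of control, with a bar for the mean and whiskers for the SD of 3 libraries. The sorafenib points of Hsf2 and Hspd1 lie above all control points, and those of Hspa1a and Hspa1b lie below them.

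The remaining HSP70 and HSP110 genes did not pass the test. Hspa8 averaged 2975 ± 197 CPM in sorafenib libraries and 2763 ± 371 CPM in control libraries (SD, n = 3 each). Hspa14, a ribosome-associated HSP70, averaged 55.4 ± 3.81 CPM in sorafenib libraries and 53 ± 2.92 CPM in control libraries. The HSP110 proteins Hspa4, Hspa4l and Hsph1 act as nucleotide exchange factors for HSP70. Hspa4 averaged 317 ± 5.58 CPM in sorafenib libraries and 304 ± 13.5 CPM in control libraries, and Hsph1 117 ± 6.51 CPM in sorafenib libraries and 108 ± 4.03 CPM in control libraries. Hspa4l had 91.2, 83.6 and 85.2 CPM in sorafenib libraries, against 98.4, 100.6 and 96.9 CPM in control libraries. These Hspa4l values did not overlap, but on FPKM sorafenib 1 (9.28) lay above control 2 (9.25). The adjusted p was 0.0818 with all libraries and 0.0314 without control 2.

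None of the 5 HSP70 cochaperones that follow passed edgeR's quasi-likelihood test, and DESeq2 and limma-voom called 0 as well. Only 1 of them, Stub1, which is neither a J-domain gene nor an exchange factor, had an unadjusted p under 0.05. The J-domain genes Dnajb1, Dnaja1 and Dnaja2 encode the main cytosolic partners of HSP70. Dnajb1, which like Hspa1a is a well-known HSF1 target, had 139.7, 128.6 and 130.7 CPM in sorafenib libraries, against 131.1, 164.4 and 149.5 CPM in control libraries. These values overlapped (log2 fold change -0.16 ± 0.09 SE, adjusted p = 0.254). Dnaja1 averaged 152 ± 6.57 CPM in sorafenib libraries and 148 ± 16.4 CPM in control libraries, and Dnaja2 213 ± 5.06 CPM in sorafenib libraries and 214 ± 21.8 CPM in control libraries. Bag3, an exchange factor that links HSP70 to autophagy and another HSF1 target, averaged 16.5 ± 2.7 CPM in sorafenib libraries and 14.2 ± 1.65 CPM in control libraries (adjusted p = 0.329). Stub1, which encodes the ubiquitin ligase CHIP, had 51.6, 51.7 and 48.3 CPM in sorafenib libraries, against 55.4, 59.03 and 57 CPM in control libraries. The Stub1 groups did not overlap, with sorafenib lower, and the adjusted p was 0.113. Of the HSF1 targets just named, the Hspa1a and Hspa1b calls were not shared by Dnajb1 or Bag3, and whether the changes differ between these genes was not tested.

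Neither HSP90 gene passed the test. Their ratio did not overlap between the groups, but its own test could not reach 0.05 with 3 libraries per group. Hsp90aa1, the inducible cytosolic HSP90, had 651, 544 and 615 CPM in sorafenib libraries, against 689, 785 and 746 CPM in control libraries. Each sorafenib library lay below each control library (log2 fold change -0.29 ± 0.09 SE, adjusted p = 0.0531 by edgeR's quasi-likelihood test). This gene was called lower by DESeq2 (adjusted p = 0.00983), by limma-voom (adjusted p = 0.0437), without a filter (adjusted p = 0.0311), without control 1 (adjusted p = 0.0385) and without control 2 (adjusted p = 0.00849), and its adjusted p over all alternatives ran from 0.00849 to 0.225. Hsp90ab1 had 4203, 3800 and 3939 CPM in sorafenib libraries, against 3307, 3916 and 3563 CPM in control libraries. Those values overlapped (log2 fold change 0.15 ± 0.11 SE, adjusted p = 0.408), through control 2 alone, and without that library Hsp90ab1 was called higher (log2 fold change 0.21, adjusted p = 0.00928). On FPKM its groups did not overlap, at 1565 to 1710 in sorafenib and 1330 to 1439 in control libraries.

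The ratio of Hsp90aa1 to Hsp90ab1 FPKM does not depend on the scaling between libraries. It was 0.136, 0.126 and 0.137 in sorafenib libraries, against 0.183, 0.176 and 0.184 in control libraries. All sorafenib ratios lay below all control ratios. The log2 difference of the count ratio was -0.45, and the exact two-sided permutation test over samples gave p = 0.1, the smallest that 3 against 3 libraries allow. The open reading frames of both genes are identical at 76.8% of aligned bases.

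**Figure D3:**
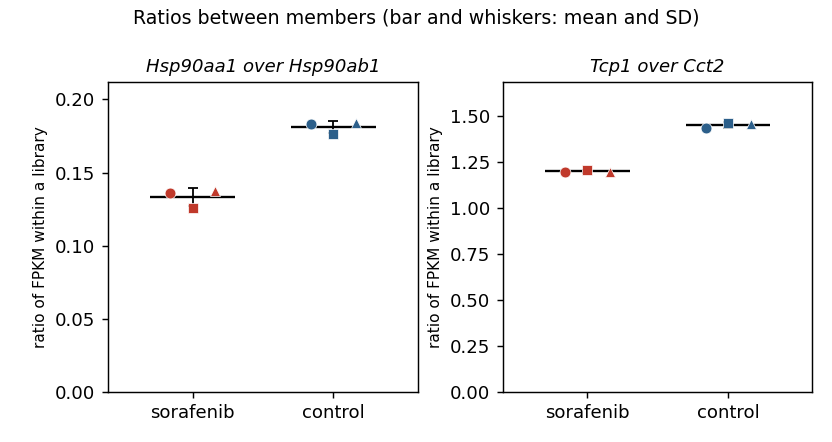
FPKM ratios of Hsp90aa1 to Hsp90ab1 and of Tcp1 to Cct2 in each library, sorafenib left of control, with a bar for the mean and whiskers for the SD of 3 libraries. The Hsp90aa1 to Hsp90ab1 ratio averages 0.133 in sorafenib and 0.181 in control libraries, and the Tcp1 to Cct2 ratio 1.20 in sorafenib and 1.45 in control libraries. Tcp1 and Cct2 are the CCT subunits with the lowest and highest log2 fold changes, and their ratio was not tested.

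Of the 7 HSP90 cochaperones, 0 were called by edgeR's quasi-likelihood test with all libraries, and 2 of them, Fkbp4 and Fkbp5, had an unadjusted p under 0.05. DESeq2 and limma-voom also called 0 of them. Fkbp4, an immunophilin of steroid receptor complexes, had 129.7, 130.9 and 133.1 CPM in sorafenib libraries, against 107.7, 128.5 and 102.8 CPM in control libraries. Ahsa1, an activator of the HSP90 ATPase, had 86.7, 87.4 and 86.7 CPM in sorafenib libraries, against 73.8, 84.9 and 75.7 CPM in control libraries. For both genes the sorafenib libraries lay above all controls by a margin that control 2 nearly closed. The adjusted p was 0.116 for Fkbp4 and 0.185 for Ahsa1 with all libraries, and 0.000169 for Fkbp4 and 0.00594 for Ahsa1 without control 2. Fkbp5, a related immunophilin and a known glucocorticoid receptor target, had 42.9, 45.7 and 44.5 CPM in sorafenib libraries, against 49.9, 51.6 and 48.1 CPM in control libraries. Cdc37, which delivers kinases such as RAF to HSP90, had 310.2, 297.9 and 299.9 CPM in sorafenib libraries, against 317.4, 393.3 and 325.6 CPM in control libraries. Neither set overlapped, with sorafenib lower, and the adjusted p was 0.138 for Fkbp5 and 0.175 for Cdc37. Stip1, the HOP protein that joins HSP70 to HSP90, Ptges3, the p23 cochaperone, and Chordc1, a zinc-binding HSP90 partner, had overlapping groups. The adjusted p was 0.707 for Stip1, 0.934 for Ptges3, which has a pseudogene copy in the table, and 0.85 for Chordc1.

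Of the mitochondrial chaperones, Hspd1 rose. Hspd1 had 379, 389 and 377 CPM in sorafenib libraries, against 299, 348 and 282 CPM in control libraries. The groups did not overlap, and control 2 was the nearest to the sorafenib libraries. Hspd1 was 1.23-fold higher with sorafenib (log2 fold change 0.30 ± 0.09 SE, adjusted p = 0.0345 by edgeR's quasi-likelihood test). The call was lost when control 1, control 3 or any of the 3 sorafenib libraries was left out (adjusted p = 0.0802 to 0.123). Those fits called 9.15 to 15.3% of all tested genes, against 17.9% with all libraries. Leaving out control 2 gave a log2 fold change of 0.39 (adjusted p = 1.33e-05), where 31.8% of all tested genes were called. Over all alternatives the log2 fold change was 0.25 to 0.39.

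Hspe1, whose window holds the stretch printed above, had 279.7, 285.4 and 289.9 CPM in sorafenib libraries, against 215.4, 306.6 and 200.9 CPM in control libraries. On CPM control 2 lay above every sorafenib library and the other controls lay well below them. On FPKM, which carry no TMM factor, control 2 (368) lay below the sorafenib libraries (371, 384 and 388). The log2 fold change was 0.24 ± 0.13 SE (adjusted p = 0.258) with all libraries and 0.46 (adjusted p = 2.96e-06) without control 2. Of the tested members Hspe1 deviated most in control 2, by 0.56 on the log2 scale from the other controls. The FPKM ratio of Hspe1 to Hspd1 was 2.49, 2.47 and 2.59 in sorafenib libraries and 2.43, 2.97 and 2.40 in control libraries.

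Hspa9, the mitochondrial HSP70 that draws proteins through the import pore, had 779, 754 and 743 CPM in sorafenib libraries, against 609, 736 and 633 CPM in control libraries. The groups did not overlap, by a narrow margin at control 2. The adjusted p was 0.16 with all libraries, 0.0201 under scaling by total counts and 0.00033 without control 2. Trap1, the mitochondrial HSP90, had 79.8, 73.3 and 73.9 CPM in sorafenib libraries, against 78.2, 80.8 and 81.8 CPM in control libraries, which overlapped (adjusted p = 0.443). Of the summed FPKM of these 4 genes Trap1 made up 4.11% ± 0.194 in sorafenib libraries and 5.18% ± 0.752 in control libraries (SD, n = 3 each), a description chosen after the values were seen.

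The small heat shock protein and the collagen chaperone were scarce. Hspb1, which encodes HSP27, had 2.11, 2.37 and 1.94 CPM in sorafenib libraries, against 3.16, 2.53 and 2.29 CPM in control libraries, which overlapped (adjusted p = 0.359). Serpinh1, the collagen-specific chaperone HSP47, had 3, 4 and 1 counts in sorafenib libraries, against 2, 6 and 2 counts in control libraries. It was the only member that did not pass the filter on low counts, and it is near the limit that a count of 0 allows.

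None of the 8 CCT chaperonin genes passed edgeR's quasi-likelihood test, and 0 had an unadjusted p under 0.05. Each CCT ring holds a copy of every subunit. Their log2 fold changes lay between -0.16 for Tcp1 and 0.11 for Cct2, and DESeq2 and limma-voom called 0 of them as well. Tcp1 had 948, 909 and 894 CPM in sorafenib libraries, against 903, 1209 and 969 CPM in control libraries. Cct2 had 705, 668 and 663 CPM in sorafenib libraries, against 559, 733 and 591 CPM in control libraries. For every CCT gene control 2 was the highest library on CPM. On FPKM sorafenib 1 lay above it for Cct2 (324 against 305), Cct3, Cct4 (262 against 256) and Cct5. Without control 2, Cct2 (log2 fold change 0.24, adjusted p = 0.00236) and Cct4 (log2 fold change 0.19, adjusted p = 0.00785) were called higher while Tcp1 was not called. Directions of single CCT genes depended on the scaling: Cct6a, Cct7 and Cct8 were at or just under 0 with TMM factors and above 0 with total counts.

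The proportions within the complex are given as a description chosen after the values were seen, without a test. Tcp1 made up 21.5%, 21.4% and 21.1% of the summed FPKM of the 8 subunits in sorafenib libraries, against 23.2%, 24.1% and 23.7% in control libraries. Cct2 made up 18.02%, 17.8% and 17.6% in sorafenib libraries, against 16.2%, 16.5% and 16.3% in control libraries. Cct4 made up 14.6% ± 0.168 in sorafenib libraries and 13.8% ± 0.161 in control libraries (SD, n = 3 each). These 3 shares did not overlap between the groups, with Tcp1 lower and Cct2 and Cct4 higher in sorafenib libraries, and the shares of the other 5 subunits overlapped.

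The FPKM ratio of Tcp1 to Cct2 was 1.19, 1.21 and 1.20 in sorafenib libraries, against 1.43, 1.46 and 1.45 in control libraries. Control 2 did not stand apart in this ratio, whose log2 difference was -0.27 with and without that library. Tcp1 and Cct2 have the lowest and highest log2 fold changes of the 8 subunits. A difference in their ratio follows from the choice of this pair, and it was not tested. The annotation of GRCm38 places Acat3 and Mrpl18, both in the count table, over Tcp1 on the opposite strand. No source used here gives the strand setting of the counting, so reads from stretches that these genes share with Tcp1 cannot be told apart. The extent of the shared stretches was not measured. The same limit holds for Cct6a and Psph, Cct7 and Pradc1, Cct8 and Usp16, Dnaja1 and Smu1, Stub1 and Jmjd8, Trap1 and Dnase1, and Hspd1 and Hspe1.

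**Figure D4:**
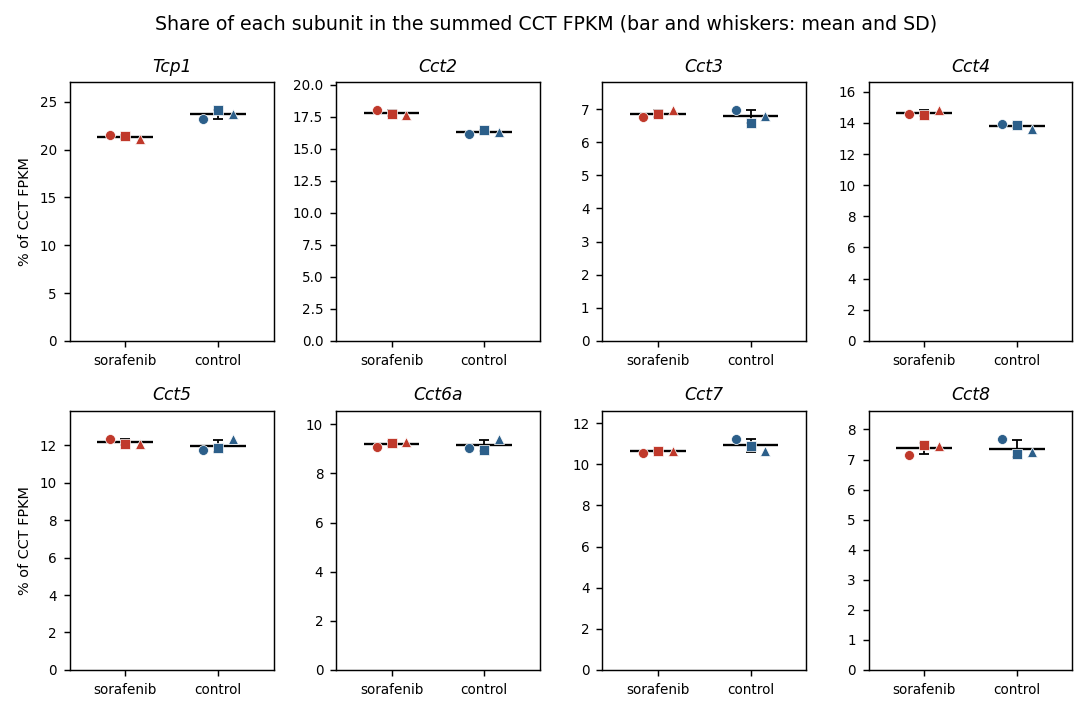
Share of the summed FPKM of the 8 CCT subunits held by each subunit, in percent, per library, sorafenib left of control, with means and SD. Tcp1 lies at 21.1 to 21.5% in sorafenib and 23.2 to 24.1% in control libraries, and Cct2 at 17.6 to 18.02% in sorafenib and 16.2 to 16.5% in control libraries.

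**Figure D5:**
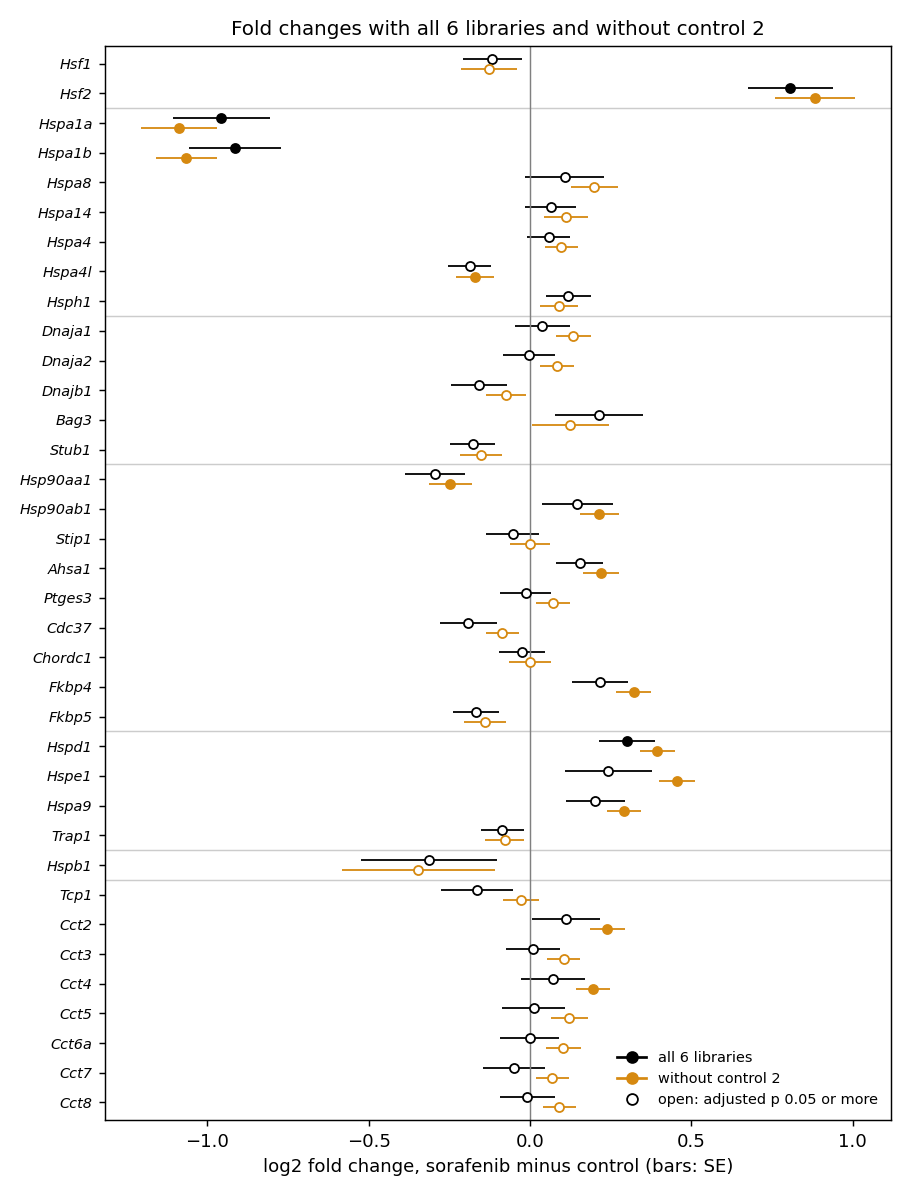
Log2 fold change of each tested member, sorafenib minus control, with its standard error, for all 6 libraries (black) and without control 2 (orange), filled where the adjusted p is under 0.05. Hsf2 stands at 0.81 and Hspa1a and Hspa1b at -0.96 and -0.91 with all libraries, and most other members lie within 0.3 of 0.

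The plot of fold changes sets the values with and without control 2 side by side. Hspe1 stood at 0.46 without control 2 and 0.24 with it, the widest move of any tested member. Hspa1a stood at -1.09 without control 2 and -0.96 with it, and Hspa1b at -1.06 without control 2 and -0.91 with it.

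Related genes outside the member list were counted from the same test in 7 lists with 108 tested genes, of which 3 rose and 9 fell (11.1%, against 17.9% of all tested genes). Without control 2, 21 rose and 16 fell, where 15% of all tested genes rose and 16.8% fell. Of 10 other genes of the HSF1 axis, Hspb6, a small heat shock protein, was 1.51-fold higher (adjusted p = 0.0479 by edgeR, lost under 10 of 16 alternatives) and Hsf4, a heat shock factor of the lens, was 1.54-fold lower (adjusted p = 0.0151, lost under 4 of 16). Of 23 other HSP70 system genes 3 fell, all J-domain genes, and their calls held under all 16 alternatives. Dnajb4 averaged 28.3 ± 2.64 CPM in sorafenib libraries and 54.4 ± 6.04 CPM in control libraries (1.92-fold lower, adjusted p = 0.000183). Dnajb5 averaged 14.6 ± 0.717 CPM in sorafenib libraries and 21.6 ± 0.592 CPM in control libraries (1.48-fold lower, adjusted p = 0.00148). Dnajc21, which acts in ribosome maturation, averaged 111 ± 11.7 CPM in sorafenib libraries and 155 ± 15.4 CPM in control libraries (1.39-fold lower, adjusted p = 0.00646).

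Of all 13255 tested genes 4096 had an unadjusted p under 0.05. Among 22 other HSP90 cochaperones 0 were called and 3 had an unadjusted p under 0.05. The smallest p belonged to Fkbp8, a mitochondrial and ER immunophilin (adjusted p = 0.071 by edgeR, 0.0492 by DESeq2). Among 15 genes of prefoldin, CCT cofactors and tubulin cofactors 0 were called and 1, Pdcl, had an unadjusted p under 0.05 (adjusted p = 0.154 by edgeR, 0.0141 without control 2). Of the 12 tubulin and actin genes, the main clients of CCT, Tubb2a rose 1.36-fold (adjusted p = 0.0337), Tubb6 fell 1.27-fold (adjusted p = 0.00913) and Tuba1a fell 1.28-fold (adjusted p = 0.0295). The Tubb2a call was lost under 6 of 16 alternatives, that of Tuba1a under 8 and that of Tubb6 under 1.

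Of 18 other mitochondrial proteostasis genes only Afg3l2, a subunit of the inner membrane AAA protease, was called: it averaged 239 ± 7.68 CPM in sorafenib libraries and 326 ± 17 CPM in control libraries (1.37-fold lower, adjusted p = 0.00152), under all 16 alternatives. Of 8 genes of the glucocorticoid receptor axis, a client pathway of HSP90 and FKBP proteins, Tsc22d3, the transcript of GILZ, rose 1.72-fold (adjusted p = 0.00021), while Sgk1 fell 1.92-fold (adjusted p = 5.13e-05) and Klf9 fell 1.35-fold (adjusted p = 0.0218, lost under 8 of 16 alternatives). All 3 are genes that glucocorticoids are known to raise.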

How the data were processed

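RNA-seq was examined from 6 mouse Th9 libraries, 3 of sorafenib-treated cells and 3 of controls, with groups taken from the titles. The labels' protocols name TRIzol extraction and the VAHTS Universal V5 RNA-seq kit. Whole-number counts per gene and FPKM values were deposited. GRCm39 is the build in the submitters' processing notes, which list fastp, HISAT2, HTSeq, DESeq2 and R 3.2.0. No source used here gives the strand setting, annotation or handling of multi-mapping reads. The deposited FPKM equalled the count divided by library total and a fixed gene length, which gave the lengths used.

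Low counts were removed with filterByExpr, and edgeR 4.0.16 in R 4.3.3 tested the remaining 13255 genes after TMM scaling (robust quasi-likelihood F test, two-sided). The model held the group alone, which left 4 residual degrees of freedom, and the common biological coefficient of variation was 10.9%. The Benjamini-Hochberg adjustment covered every gene tested, and calls were made at 0.05. Standard errors come from the F statistic. Alternatives, 16 in all, used DESeq2 1.42.0 and limma 3.58.1 among others. All members are reported, and of the other 7 lists up to 3 called genes each, or the 1 with the smallest p. Of each of 7 marker lists up to 2 called genes and defining markers near 0 are named. The members and lists were chosen with earlier results of these data known. Promoter sequences and overlapping genes are from GRCm38, so no coordinate was joined to the count table.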

Additional observations from a re-analysis of the deposited data

How the results depend on the processing

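The alternatives were DESeq2 size factors, total counts only, no filter, a minimum CPM of 1 in 3 libraries, the replicate block, DESeq2, limma-voom, limma on log2(FPKM + 1) and log2(FPKM + 0.1) with a mean FPKM of at least 0.5, log2(FPKM + 1) without a filter, and leaving out each library. Over the 36 tested members they gave 576 values, of which 491 kept direction and call, 7 lost the call, 24 gained one and 54 changed sign. The sign changes concern Cct3, Cct5, Cct6a, Cct7, Cct8, Chordc1, Dnaja1, Dnaja2, Ptges3 and Stip1, all uncalled. The cause was not tested.

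Members called higher were 5 with total counts and on both filtered FPKM scales and 4 on unfiltered FPKM, where 0 were called lower, and leaving out 1 library gave 1 to 9 higher and 2 to 4 lower. Of all genes 11.3% were called higher with total counts, 12.7% on filtered log2(FPKM + 1), 12.5% on filtered log2(FPKM + 0.1) and 4.25% on unfiltered FPKM. All genes called lower were 826 with total counts, 744 and 737 on filtered log2(FPKM + 1) and log2(FPKM + 0.1) and 520 on unfiltered FPKM. Leaving out 1 library gave 559 to 2035 higher and 684 to 2290 lower. Genes of the other 7 lists called higher were 11 with total counts, 13 and 13 on filtered FPKM, 5 on unfiltered FPKM and 1 under the replicate block. Leaving out 1 library gave 1 to 21 higher and 5 to 16 lower. The log2 difference of the Hsp90aa1 to Hsp90ab1 ratio was -0.47 to -0.41 with a library left out.

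With total counts the log2 fold changes were 0.081 for Cct6a, 0.032 for Cct7, 0.072 for Cct8, 0.051 for Chordc1, 0.078 for Dnaja2, 0.067 for Ptges3 and 0.025 for Stip1. On log2(FPKM + 1), filtered or not, they were 0.083 for Cct6a, 0.035 for Cct7, 0.074 for Cct8, 0.049 for Chordc1, 0.078 for Dnaja2, 0.067 for Ptges3 and 0.027 for Stip1. On log2(FPKM + 0.1) they were 0.083 for Cct6a, 0.035 for Cct7, 0.074 for Cct8, 0.050 for Chordc1, 0.079 for Dnaja2, 0.068 for Ptges3 and 0.027 for Stip1. Cct6a was 0.0018 with a minimum CPM, 0.0019 with DESeq2 and with its size factors, 0.0053 with limma-voom, 0.0084 without a filter and 0.0066 under the replicate block. Dnaja2 was 5.85e-06 with DESeq2, 0.0017 with limma-voom, 0.0065 without a filter and 0.0021 under the replicate block. Cct8 was 0.00075 without a filter. With a library left out the values ran from -0.045 to 0.10 for Cct3, -0.072 to 0.12 for Cct5, -0.079 to 0.10 for Cct6a, -0.10 to 0.069 for Cct7, -0.052 to 0.090 for Cct8, -0.046 to 0.011 for Chordc1, -0.0091 to 0.13 for Dnaja1, -0.061 to 0.085 for Dnaja2 and -0.070 to 0.071 for Ptges3.

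Equal replicate numbers are not stated to pair libraries. Deviations of same-numbered libraries from their group means correlated at -0.06, 0.15 and 0.10, and not every library correlated best with its own number. The replicate block called 1031 genes higher and 1108 lower, and 2 members higher and 2 lower. Depth limits Serpinh1, at 1 to 6 counts, and with 3 libraries per group small differences can be missed.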
